A study of Mus musculus with 48 samples.

Results

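The genes described here encode the contractile and calcium-handling proteins of fast skeletal muscle fibers. They are 10 genes chosen by name: the fast myosin heavy chains *Myh1*, *Myh2* and *Myh4*, the fast troponins *Tnnc2*, *Tnni2* and *Tnnt3*, the fast regulatory myosin light chain *Mylpf*, and the calcium pump *Atp2a1*, the calcium store protein *Casq1* and the calcium buffer *Pvalb*. All 10 were found by gene name among the 56748 genes of the deposited expression table, and all 10 were among the 15637 genes whose counts were high enough to be tested.

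A fast fiber contracts when calcium leaves the sarcoplasmic reticulum, the calcium store of the muscle cell, and binds troponin on the thin filament, which frees actin for myosin. The myosin heavy chain is the motor, and its isoform is the usual name of a fiber type: *Myh4* marks IIB fibers, *Myh1* marks IIX fibers and *Myh2* marks IIA fibers, while *Myh7* marks slow type I fibers. The tibialis anterior (TA) of the mouse, a muscle at the front of the lower leg, is known for its high content of IIB and IIX fibers.

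RNA was sequenced from the TA of male mice, of 39 to 55 weeks by the labels and methods although the study's discussion gives a younger age, of 2 genotypes, with and without a tumor, at 6 circadian times (CT18, 22, 26, 30, 34 and 38, in hours of constant darkness counted from CT0). FoxP1SkmKO mice were homozygous for a floxed allele of the transcription factor gene *Foxp1* (FoxP1fl/fl) and carried ACTA1-Cre, which drives recombination from a skeletal actin promoter and so acts in muscle fibers and leaves other cells of the muscle with the gene. The WT mice are C57BL/6J in the genotype label and in the study's methods, whereas the design text of the series describes them as FoxP1fl/fl mice without Cre, and the mice of both genotypes were grouped here by the labels. KPC mice had murine KPC pancreatic cancer cells injected into the pancreas, and control mice had sterile PBS injected in the same place. Each of the 24 groups held 2 mice, each with its own library, so that 12 libraries represented each genotype with each treatment, and 48 libraries were analysed.

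Total counts ran from 14480867 to 20787784 reads per library, with a median of 16602092. The 10 genes together took 12.4% to 14.9% of the reads of a library. Sums of FPKM (reads scaled by gene length and library size) over the 10 genes ran from 39309.6 to 51024, against 41.4 to 88.7 for 12 genes of slow fibers, and *Myh7*, the slow myosin, ran from 0.237 to 4.76 FPKM. By these markers all 48 libraries were of fast muscle. *Foxp1* itself had lowest, median and highest levels of 0.430, 0.615 and 0.971 FPKM in WT control mice and of 0.430, 0.585 and 0.642 FPKM in FoxP1SkmKO control mice, ranges that overlapped, and the mean difference was a log2 fold change of -0.11 (SE 0.070, adjusted p = 0.459). In KPC mice the difference, FoxP1SkmKO minus WT, was -0.20 (SE 0.071, adjusted p = 0.246). A gene-level count includes the exons outside the deleted part and the other cells of the muscle, so the genotype labels could not be checked by it.

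The annotated positions of the members in mm39, the build of the deposited files, show how they cluster. The 3 myosin genes lie next to each other on the plus strand of chromosome 11, *Myh2* at chr11:67061853-67088343, *Myh1* at chr11:67090878-67115401 and *Myh4* at chr11:67128855-67151272. *Tnni2* at chr7:141995545-141998147 and *Tnnt3* at chr7:142052573-142069746 lie near each other on the plus strand of chromosome 7. That chromosome also holds *Atp2a1* at chr7:126045030-126062280 (minus strand) and *Mylpf* at chr7:126808062-126813470 (plus strand). *Tnnc2* lies at chr2:164619081-164621887, *Casq1* at chr1:172037461-172047435 and *Pvalb* at chr15:78075314-78090600, all on the minus strand.

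The promoters of the 3 adjacent myosin genes are shown because their genes lie side by side and differ in level while the letters before their start sites are partly the same. Each sequence runs 5′ to 3′ from 250 bases before to 50 bases after the start of the gene, from RefSeq in GRCm38.p6, a build with other coordinates than mm39, and all 3 are on the plus strand: *Myh2* at chr11:67170777-67171076, *Myh1* at chr11:67199852-67200151 and *Myh4* at chr11:67237562-67237861. The capitals mark a run of 20 bases that all 3 share.
Myh2: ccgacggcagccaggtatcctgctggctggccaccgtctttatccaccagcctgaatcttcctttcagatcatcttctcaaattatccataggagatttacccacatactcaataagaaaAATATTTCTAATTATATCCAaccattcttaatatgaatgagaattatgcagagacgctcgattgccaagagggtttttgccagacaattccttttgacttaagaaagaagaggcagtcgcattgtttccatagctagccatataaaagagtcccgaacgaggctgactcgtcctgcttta
Myh1: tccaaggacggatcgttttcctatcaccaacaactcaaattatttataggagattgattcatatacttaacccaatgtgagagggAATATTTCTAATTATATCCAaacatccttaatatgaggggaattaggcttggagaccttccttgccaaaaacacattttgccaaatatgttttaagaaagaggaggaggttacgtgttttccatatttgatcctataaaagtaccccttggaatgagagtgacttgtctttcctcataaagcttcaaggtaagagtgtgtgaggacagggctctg
Myh4: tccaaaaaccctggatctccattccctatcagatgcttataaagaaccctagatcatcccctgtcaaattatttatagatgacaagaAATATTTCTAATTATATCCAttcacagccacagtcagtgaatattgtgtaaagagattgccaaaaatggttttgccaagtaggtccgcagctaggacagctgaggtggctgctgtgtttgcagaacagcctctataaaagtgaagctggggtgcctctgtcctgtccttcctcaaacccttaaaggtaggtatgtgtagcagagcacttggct

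The shared run begins 130 bases before the start of *Myh2*, 165 bases before that of *Myh1* and 163 bases before that of *Myh4*. Of 27025 promoters of the same length, searched on both strands, 0.0111% held it, and these were the 3 myosins. Promoters were given for 8 members, and *Tnni2* and *Tnnt3* had no entry. TATAAA, the letters of a TATA box, was found in *Myh1*, *Myh2* and *Myh4* and in 14.2% of all promoters. CAGCTG, an E-box that myogenic factors can bind, was found in *Myh4*, *Mylpf*, *Atp2a1* and *Casq1* and in 16.1% of all promoters, and TGTTTAC, a forkhead motif, was found in 0 of the 8 members and in 3.55% of all promoters. A match describes letters only and is not evidence of binding.

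**Figure D1:**
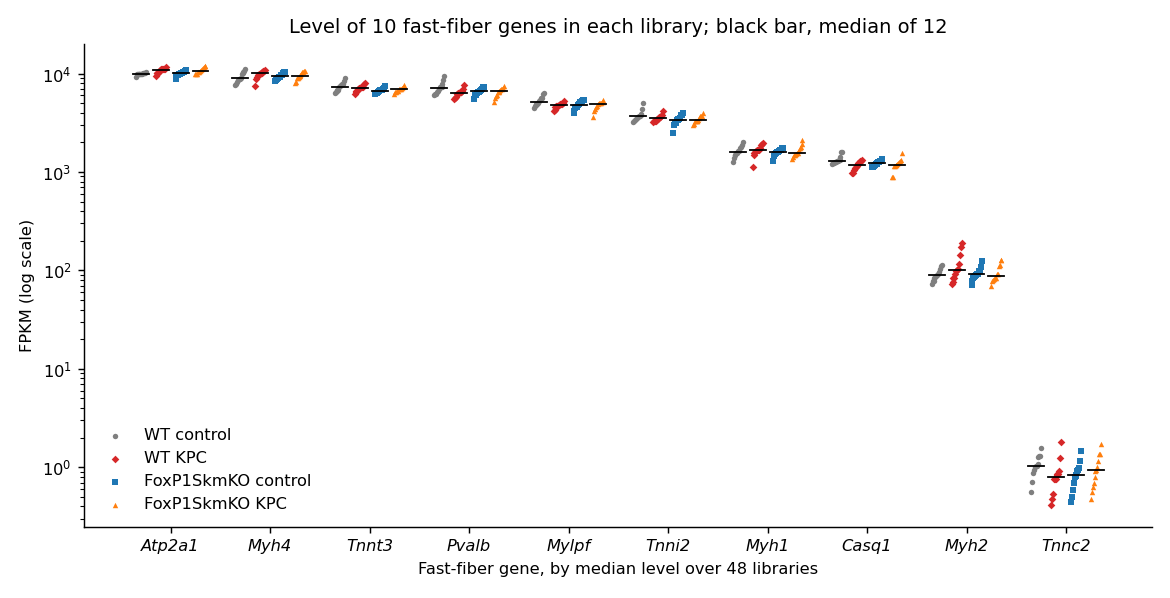
Level of each fast-fiber gene in each library, in FPKM on a log scale, with genes ordered by their median over 48 libraries. Each point is 1 mouse, colors and symbols give genotype and treatment, and short black lines are medians of 12 libraries; 8 genes lie at 898 FPKM or above, *Myh2* lies between 69.2 and 189 FPKM, and *Tnnc2* lies near 1 FPKM.

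Levels are given per length, in FPKM, so that they can be compared between genes. *Atp2a1*, the pump that returns calcium to its store in fast fibers, was the highest, with a lowest, median and highest value of 8746, 10188 and 11946 FPKM over 48 libraries, and it ranked 6 among all genes by mean. *Myh4*, the IIB motor, followed with 7512, 9607 and 11093 FPKM. *Atp2a1* was above *Myh4* in 43 of 48 libraries, but their ranges overlapped.

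*Tnnt3*, which ties the troponin complex to tropomyosin, had 6126, 6897 and 8938 FPKM, and *Pvalb*, which binds calcium in the cytosol of fast fibers, had 5129.8, 6547 and 9494 FPKM. These neighbors were the least separated pair in the order, with *Tnnt3* above *Pvalb* in 36 of 48 libraries. *Mylpf*, the regulatory light chain on the neck of fast myosin, had 3615, 4883 and 6343 FPKM. *Tnni2*, the inhibitory troponin, had 2516, 3451 and 5001 FPKM, below *Mylpf* in each of the 48 libraries although the ranges over all libraries overlapped.

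Below them a gap followed, since no library had *Tnni2* as low as the highest library of *Myh1*. *Myh1*, the IIX motor, had 1113, 1611 and 2110.3 FPKM and *Casq1*, which stores calcium inside the reticulum of fast fibers, had 898, 1237 and 1609 FPKM, with *Myh1* the higher in 44 of 48 libraries. *Myh2*, the IIA motor, had 69.2, 91.1 and 189 FPKM and overlapped with none of its neighbors in the order. The spread between libraries, as the coefficient of variation over 48 libraries, was 6.63% for *Atp2a1*, 8.71% to 12.5% for the 7 genes *Tnnt3*, *Myh4*, *Mylpf*, *Tnni2*, *Pvalb*, *Casq1* and *Myh1*, 24.8% for *Myh2* and 35.6% for *Tnnc2*.

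Among the 4 adult myosins, *Myh4* took 80.1% to 88.2% of the summed FPKM of *Myh4*, *Myh1*, *Myh2* and *Myh7* in a library (median 85.0%). *Myh1* took 11.1% to 18.7% (median 14.2%) and *Myh2* took 0.619% to 1.87% (median 0.796%). The *Myh4* share hardly differed between the groups: its mean was 84.2% ± 2.42 (SD, n = 12) in WT control, 84.7% ± 1.96 in WT KPC, 85.0% ± 1.35 in FoxP1SkmKO control and 84.6% ± 2.00 in FoxP1SkmKO KPC mice, with differences smaller than the spread within a group. The myosins are near-identical in places, and 1.89% of the 150-base windows of the *Myh1* transcript, 1.80% of those of *Myh2* and 0.498% of those of *Myh4* also occur in another myosin transcript, so a small part of their counts could be split between them. In whole muscle, fewer fibers of a type and less RNA per fiber cannot be told apart.

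*Tnnc2* encodes the fast troponin that binds calcium, the partner of *Tnni2* and *Tnnt3* in 1 complex, but only 6 to 23 reads per library were counted on it (median 12). Its level had a lowest, median and highest value of 0.415, 0.895 and 1.80 FPKM, a rank of 10216 among all genes, and the median *Myh4* level was 10596 times its own. WT control mice had 9 to 23 reads, WT KPC mice 6 to 21, FoxP1SkmKO control mice 6 to 21 and FoxP1SkmKO KPC mice 6 to 23, so the 4 ranges were nearly the same.

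The exons of *Tnnc2* overlap those of a gene on the opposite strand, *Ube2c*, a ubiquitin-conjugating enzyme of the cell cycle. The overlap covered 616 of its 897 annotated exonic bases (68.7%). For the other members the share of exonic bases also held by another gene was 29.4% for *Mylpf*, 17.6% for *Atp2a1* and 10.2% for *Myh1*, 5.78% or less for *Myh4*, *Tnnt3*, *Casq1* and *Myh2*, and 0 for *Tnni2* and *Pvalb*. *Ube2c* had 35 to 84 reads (median 51.5). Whether the counting used strand is not given in the sources used here, reads from a gene and its antisense partner then cannot be told apart, and the part of this overlap in the low count of *Tnnc2* was not tested.

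**Figure D2:**
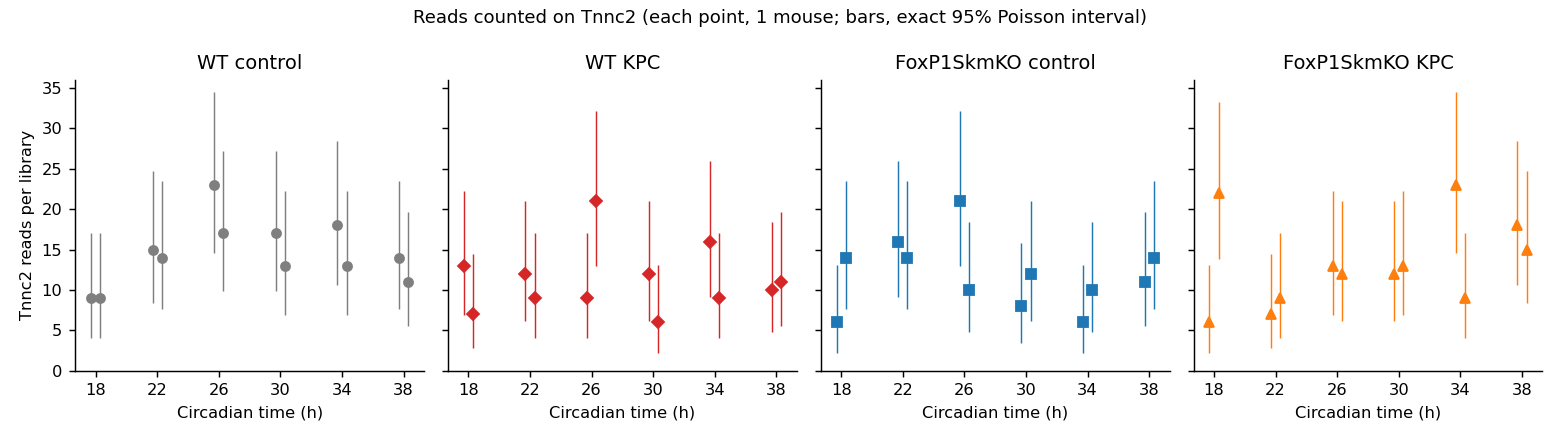
Reads counted on *Tnnc2* in each library against circadian time in hours, with 1 panel for each genotype and treatment. Each point is 1 mouse and bars are exact 95% Poisson intervals, which cover counting error only; all 48 counts lie between 6 and 23 reads and the 4 panels span nearly the same range.

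Before the comparisons, 1 group has to be set apart. A length index was computed for each library as the median deviation, on the log2 scale, of long genes minus that of short genes. The 2 WT control libraries of CT26 had -0.46 and -0.30, the lowest of all, the next was 1 WT KPC library of CT38 at -0.23, and the remaining 45 ran from -0.098 to 0.18. Relative to the other libraries, short genes were therefore high and long genes low in WT control mice at CT26. *Tnni2*, *Pvalb* and *Mylpf* are short genes of 1497, 1041 and 1062 bases in the deposited table, and *Myh4* is a long one of 6016 bases. The averaged comparisons were repeated without CT26 and with the trend of counts on gene length removed in each library, and the rhythm tests without CT26, settings chosen after seeing the data. Calls that ended in them are named with their values below.

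**Figure D3:**
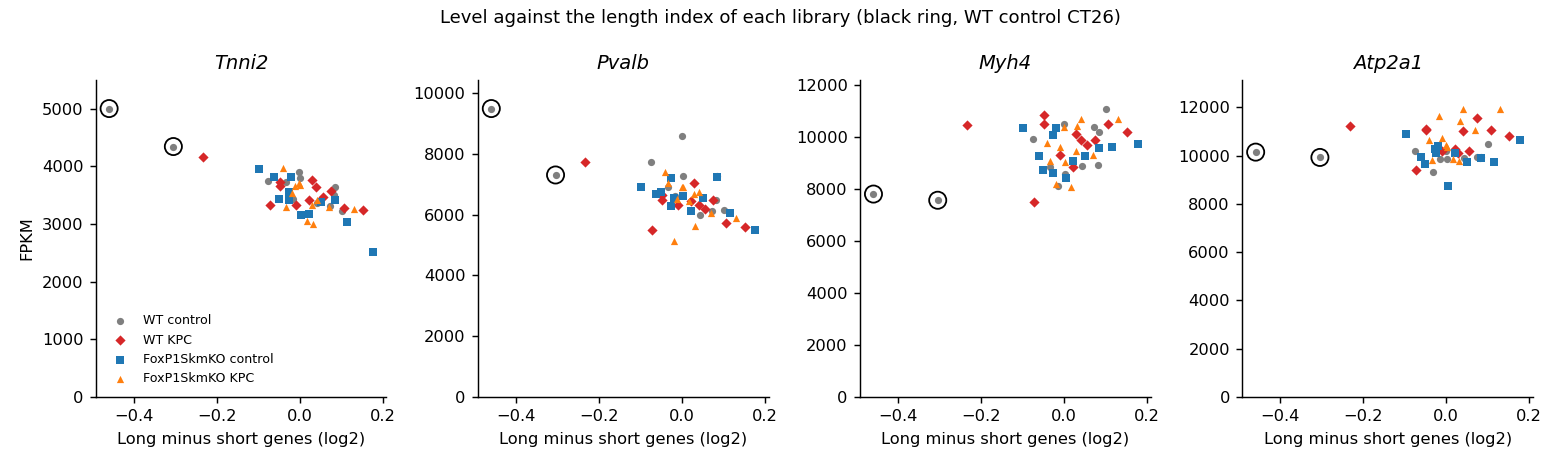
Level of *Tnni2*, *Pvalb*, *Myh4* and *Atp2a1* in FPKM against the length index of each library (log2, long minus short genes). Each point is 1 mouse and black rings mark the 2 WT control libraries of CT26, which have the lowest index, the highest *Tnni2* value (5001 FPKM) and the highest *Pvalb* value (9494 FPKM).

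The first comparison asked how the KPC tumor changed the genes in WT muscle, averaged over the 6 times. Changes were small: the fitted log2 fold changes of 9 members lay between -0.20 and 0.26, and that of the sparsely counted *Tnnc2* was -0.32. With edgeR's quasi-likelihood test and Benjamini-Hochberg adjustment over all genes, 0 of 10 members passed adjusted p under 0.05, where 1.79% of all genes tested did. At an unadjusted p under 0.05 there were 5 members (*Atp2a1*, *Myh2*, *Casq1*, *Pvalb* and *Mylpf*), against 15.2% of all genes, and DESeq2 called 2, *Casq1* and *Pvalb*, with 2.28% of all genes. The members' median log2 fold change was -0.065, against 0.0016 over all genes tested.

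*Casq1* had the lowest adjusted p of the 10. In *Casq1*, the lowest, median and highest levels were 1197, 1300.1 and 1609 FPKM in WT control mice and 966, 1177 and 1324 FPKM in WT KPC mice. KPC mice were lower on average at each of the 6 times, but the ranges overlapped, and the log2 fold change was -0.20 (SE 0.061, adjusted p = 0.074), a mean of 1161 ± 124 against 1337 ± 137 FPKM (SD, n = 12). The adjusted p came under 0.05, between 0.0304 and 0.0489, when any 1 of 5 libraries was left out: WT KPC CT22 replicate 2, CT30 replicate 2 or CT38 replicate 1, or WT control CT26 replicate 2 or CT30 replicate 1.

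*Pvalb* ran over 5984, 7093 and 9494 FPKM in WT control and 5508, 6382 and 7728 FPKM in WT KPC mice (lowest, median, highest). It was lower in KPC mice at 5 of 6 times, with overlapping ranges and a log2 fold change of -0.17 (SE 0.050, adjusted p = 0.0777). Without CT26 the value was -0.12 (adjusted p = 0.369), and the adjusted p came under 0.05 without WT KPC CT38 replicate 1, WT control CT26 replicate 2 or WT control CT30 replicate 1 (0.0269 to 0.0434).

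*Atp2a1* was, with *Casq1* and *Pvalb*, 1 of 3 members with an adjusted p under 0.1, and its value was positive. Its levels were 9304, 9932 and 10463 FPKM in WT control and 9419, 10896 and 11549 FPKM in WT KPC mice, higher at 5 of 6 times, and the log2 fold change was 0.10 (SE 0.030, adjusted p = 0.0918), with a 95% interval of 0.034 to 0.16. Most KPC mice were above the control median, but the groups overlapped, and the adjusted p came under 0.05 only without WT KPC CT30 replicate 2 (adjusted p = 0.0389).

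*Myh2* varied most among the well-counted members, and its mean was also higher in KPC mice at 5 of 6 times. WT control mice had 72.1, 89.2 and 112 FPKM and WT KPC mice 72.3, 100.2 and 189 FPKM (lowest, median, highest), means of 91.1 ± 12.8 and 111 ± 38.1 FPKM (SD, n = 12). The highest values came from single mice. At CT22 the KPC mice had 174 and 72.3 FPKM, at CT30 145 and 101 and at CT34 189 and 116. The control mice had 84.1 and 112, 110.3 and 97.4 and 87.6 and 90.7 at these times. At CT34 and at CT26 both KPC mice were above both control mice (CT26: 98.9 and 91.5 against 72.1 and 78.3 FPKM). With each library left out in turn, the averaged log2 fold change ran from 0.13 to 0.34. The averaged log2 fold change was 0.26 (SE 0.11, adjusted p = 0.242).

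The remaining members had *Mylpf* at -0.15 (SE 0.051, adjusted p = 0.121), *Myh4* at 0.088 (SE 0.046, adjusted p = 0.368) and *Tnni2* at -0.074 (SE 0.041, adjusted p = 0.413). *Tnnt3* was at -0.057 (SE 0.039, adjusted p = 0.519), *Myh1* at 0.028 (SE 0.064, adjusted p = 0.893) and *Tnnc2* at -0.32 (SE 0.21, adjusted p = 0.506). In each of these 6 genes the ranges of control and KPC mice overlapped. Without CT26, *Casq1* was at -0.20 (adjusted p = 0.16), *Atp2a1* at 0.10 (adjusted p = 0.154) and *Myh2* at 0.25 (adjusted p = 0.421), close to their values over 6 times. *Mylpf* was then at -0.12 (adjusted p = 0.376), *Myh4* at 0.033 (adjusted p = 0.856) and *Tnni2* at -0.0058 (adjusted p = 0.983), each nearer to 0. The *Myh4* levels were 7564, 8911 and 11093 FPKM in control and 7512, 10012 and 10829 FPKM in KPC mice.

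Markers of other cells moved in the same comparison. Of all genes, 0.627% passed as lower and 1.16% as higher, and 7910 of 15637 had a positive value. Fibroblast markers were lower in KPC mice in 7 of 7 genes and 3 passed the test, the collagen genes *Col1a1* at -0.91 (SE 0.21, adjusted p = 0.0188), *Col1a2* at -0.80 (SE 0.19, adjusted p = 0.0207) and *Col3a1* at -0.71 (SE 0.17, adjusted p = 0.0255), and their summed level ran from 34.2 to 101 FPKM in WT control and from 22.2 to 90.5 FPKM in WT KPC mice. Macrophage markers were higher in 10 of 10 genes with 1 past the test, *Ptprc* (CD45) at 0.80 (SE 0.22, adjusted p = 0.0467), with sums of 6.99 to 29.8 and 9.14 to 42.4 FPKM. The *Ptprc* call was lost without CT26, at 0.77 (adjusted p = 0.119), and with the length trend removed, at 0.76 (adjusted p = 0.0628), while the collagen calls and those of *Vwf* and *Kdr* that follow passed in both settings. Of 8 endothelial markers, *Vwf* rose (0.36 (SE 0.066, adjusted p = 0.00242)) and *Kdr* fell (-0.27 (SE 0.072, adjusted p = 0.0412)), with sums of 66.9 to 111 and 73.1 to 98.7 FPKM. None of the markers was at 0 in all libraries. Adipocyte, erythroid, Schwann cell and satellite cell lists had 0 calls with edgeR. At an unadjusted p under 0.05 they had 1, 0, 3 and 0 genes, where 15.2% of all genes stood. The part of other cells in the members' values was not tested.

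**Figure D4:**
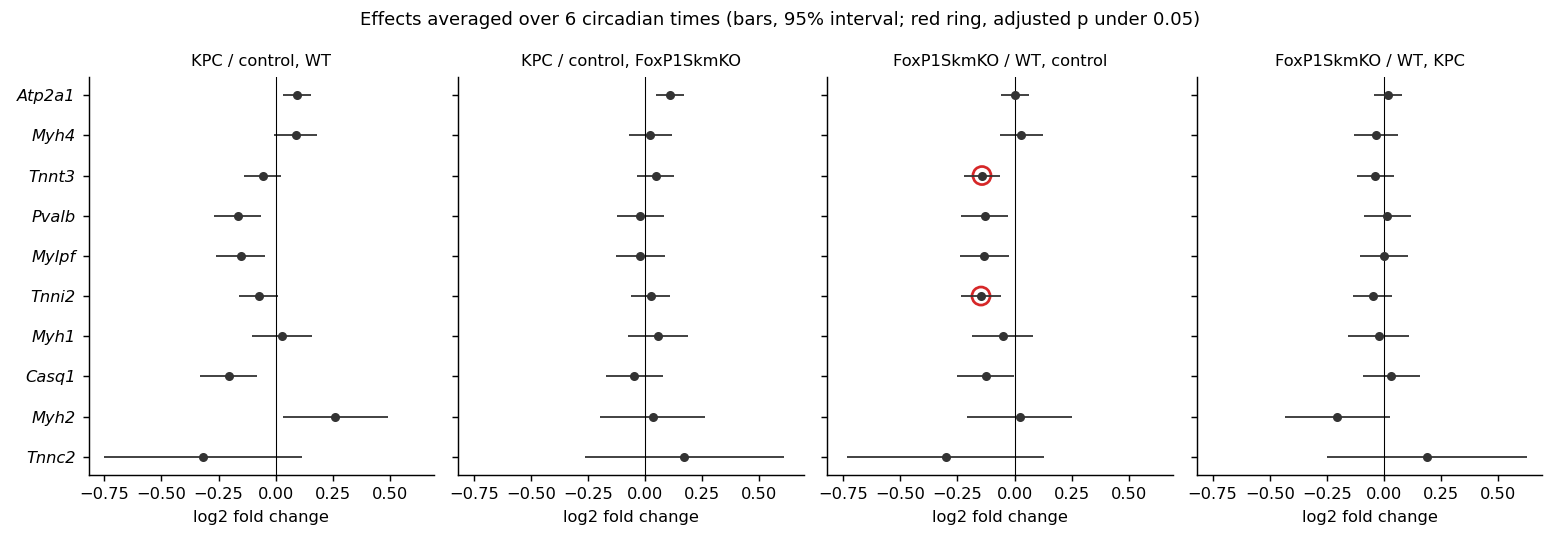
Log2 fold changes of the 10 genes averaged over 6 circadian times, with 95% intervals, in 1 panel for each comparison. A red ring marks adjusted p under 0.05: *Tnnt3* and *Tnni2* in the comparison of FoxP1SkmKO with WT control mice are the ringed points, and they lose the ring without CT26 (adjusted p = 0.240 and 0.272).

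In FoxP1SkmKO mice the tumor comparison again gave small values. *Atp2a1* had levels of 8746, 10030.4 and 10873 FPKM in control and 9781, 10697 and 11946 FPKM in KPC mice, the KPC mean was higher at 6 of 6 times, the ranges overlapped, and the log2 fold change was 0.11 (SE 0.030, adjusted p = 0.0789). The adjusted p came under 0.05 without FoxP1SkmKO KPC CT22 replicate 1, FoxP1SkmKO KPC CT38 replicate 2 or FoxP1SkmKO control CT38 replicate 1 (0.0453 to 0.0491). With edgeR 0 of 10 members passed, where 0.428% of all genes did, 1 had an unadjusted p under 0.05 (12.4% of all genes), and DESeq2 called 1 (1.03% of all genes), in both cases *Atp2a1*.

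The other 9 members were between -0.046 (*Casq1*) and 0.17 (*Tnnc2*) on the log2 scale. *Casq1* had 1120.4, 1228 and 1361 FPKM in control and 898, 1189 and 1544 FPKM in KPC mice, a wider range with the tumor. *Pvalb* had 5484, 6587 and 7239 FPKM and 5129.8, 6594 and 7402 FPKM, almost the same medians. Fibroblast markers were lower in 7 of 7 genes with 1 past the test, *Lum* at -0.79 (SE 0.17, adjusted p = 0.023). Of all 15637 genes, 46 passed as lower and 8100 had a positive value. The part of other cells in the members' values was not tested.

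The difference of the tumor effect between genotypes, FoxP1SkmKO minus WT, was tested in itself. It passed for 0 of 10 members and 0.0% of all genes with edgeR, 1 member had an unadjusted p under 0.05 against 6.52% of all genes, and DESeq2 called 0 members and 0.0% of all genes. *Pvalb* was that member, at 0.14 (SE 0.070, adjusted p = 0.764) with a 95% interval of -0.0012 to 0.29. The interval reaches past 0 because it uses fewer degrees of freedom than the test. *Casq1* differed by 0.16 (SE 0.086, adjusted p = 0.798) with an interval of -0.019 to 0.34, *Myh2* by -0.23 (SE 0.16, adjusted p = 0.845) with an interval of -0.55 to 0.10, and *Atp2a1* by 0.014 (SE 0.042, adjusted p = 0.977) with an interval of -0.072 to 0.10. These intervals do not show that the genotypes responded alike.

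The deletion was compared with WT in control mice next. *Tnnt3* and *Tnni2*, the troponins that hold the complex on the thin filament and block it without calcium, were lower in FoxP1SkmKO mice, with changes of -9.41% and -9.68%. They were 2 calls of 10 members with edgeR, both lower, where 1.58% of all genes passed as lower, 1.86% as higher and 3.44% in either direction. An unadjusted p under 0.05 was found for 5 members (*Tnnt3*, *Tnni2*, *Pvalb*, *Mylpf* and *Casq1*), against 17.2% of all genes.

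*Tnnt3* had levels of 6274, 7342 and 8938 FPKM in WT and 6155, 6682 and 7405 FPKM in FoxP1SkmKO control mice, means of 7359 ± 804 and 6663 ± 394 FPKM (SD, n = 12). FoxP1SkmKO means were lower at 6 of 6 times, the upper WT values were not reached, but the groups overlapped, and the log2 fold change was -0.14 (SE 0.039, adjusted p = 0.0339). *Tnni2* had 3216, 3689 and 5001 FPKM and 2516, 3412 and 3952 FPKM, lower at 4 of 6 times, with a log2 fold change of -0.15 (SE 0.041, adjusted p = 0.0398). The highest WT values of *Tnni2* were those of CT26, 5001 and 4342 FPKM. Both calls were lost without CT26, where the log2 fold change of *Tnnt3* was -0.10 (adjusted p = 0.24) and that of *Tnni2* -0.11 (adjusted p = 0.272), so that 0 members and 2.42% of all genes passed. With the length trend removed they were -0.12 (adjusted p = 0.0702) and -0.12 (adjusted p = 0.0612), where again 0 members passed and 3.27% of all genes did. Both settings were chosen after seeing the data.

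Leaving out single libraries also ended both calls. The *Tnnt3* call was lost, at adjusted p between 0.0506 and 0.108, without any 1 of 13 libraries: FoxP1SkmKO control CT18 replicate 1 or 2, CT22 replicate 2, CT26 replicate 2, CT30 replicate 2, CT34 replicate 2 or CT38 replicate 2, or WT control CT18 replicate 2, CT22 replicate 1, CT26 replicate 1, CT30 replicate 2, CT34 replicate 1 or CT38 replicate 1. The *Tnni2* call was lost, at 0.0667 to 0.12, also without any 1 of 13: FoxP1SkmKO control CT18 replicate 1, CT22 replicate 2, CT26 replicate 2, CT30 replicate 2, CT34 replicate 2 or CT38 replicate 2, or WT control CT18 replicate 1, CT22 replicate 1, CT26 replicate 1, CT30 replicate 2, CT34 replicate 1, or CT38 replicate 1 or 2.

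*Pvalb* was at -0.13 (SE 0.050, adjusted p = 0.151), *Mylpf* at -0.13 (SE 0.051, adjusted p = 0.161) and *Casq1* at -0.13 (SE 0.061, adjusted p = 0.276), and *Mylpf* was lower at 6 of 6 times. *Myh4*, *Atp2a1* and *Myh2* had values of 0.030, 0.0021 and 0.023, near 0, *Myh1* had -0.052 and *Tnnc2* -0.30. The members' median was -0.13, against 0.0014 over all genes tested. This comparison and that of the tumor in WT mice share the 12 WT control libraries, so their values are set side by side only: *Pvalb* -0.13 and -0.17, *Mylpf* -0.13 and -0.15, *Casq1* -0.13 and -0.20, *Tnni2* -0.15 and -0.074, and *Tnnt3* -0.14 and -0.057.

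The genotypes were then compared in KPC mice. With edgeR 0 of 10 members passed, where 0.32% of all genes did, 0 had an unadjusted p under 0.05 (10.8% of all genes), and DESeq2 called 0 of 10 and 0.742% of all genes. *Myh2* had the largest value, -0.20 (SE 0.11, adjusted p = 0.513) with a 95% interval of -0.43 to 0.026, and *Tnnc2* followed with 0.19. *Tnnt3* was at -0.039 (interval -0.12 to 0.042) and *Tnni2* at -0.049 (interval -0.13 to 0.036).

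At single times, with 2 mice in each group, the tumor effect passed for members at CT26 in WT mice, and at no other time in either genotype. *Myh4* was higher and *Pvalb* and *Tnni2* were lower in KPC mice, 3 of 10 members, where 7.17% of all genes passed at that time, 4.64% as higher and 2.53% as lower. At an unadjusted p under 0.05 there were 5 members against 21.4% of all genes, with *Tnnt3* at -0.21 and *Mylpf* at -0.31 as the other two.

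*Tnni2* at CT26 was 5001 and 4342 FPKM in the WT control mice and 3324 and 3721 in the WT KPC mice, a log2 fold change of -0.41 (SE 0.10, adjusted p = 0.0103). *Pvalb* was 9494 and 7306 in control and 6302 and 6478 FPKM in KPC mice, -0.40 (SE 0.12, adjusted p = 0.0401). *Myh4* was 7802 and 7564 in control and 9319 and 10488 FPKM in KPC mice, 0.36 (SE 0.11, adjusted p = 0.0434). In each of the 3 genes both control mice lay outside the values of both KPC mice. The 3 genes were named because they passed on these same values, so the separation adds nothing to the test. The highest *Tnni2* and *Pvalb* values of all 48 libraries were among the control values.

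These are the mice with the lowest length index. With the length trend removed *Tnni2* was at -0.24 (adjusted p = 0.172), *Pvalb* at -0.21 (adjusted p = 0.389) and *Myh4* at 0.28 (adjusted p = 0.194), so that 0 of 10 members passed, with 2.6% of all genes. On the 4 libraries of CT26 alone, edgeR called 0 members and 2.55% of all genes, and DESeq2 called 5 members (*Myh4*, *Tnni2*, *Pvalb*, *Mylpf* and *Myh2*) and also 2.55% of all genes. Leaving out 1 of these 4 libraries, an alternative chosen after seeing the data in which the lone mouse of a group is assumed to vary like the others, ended calls too. *Tnni2* was at -0.32 (adjusted p = 0.277) without control replicate 1 and at -0.33 (adjusted p = 0.155) without KPC replicate 1, and it passed without either of the other two. *Pvalb* was at -0.21 (adjusted p = 0.616) without control replicate 1, at -0.37 (adjusted p = 0.193) and -0.43 (adjusted p = 0.122) without KPC replicates 1 and 2, and it passed without control replicate 2. The *Myh4* call was lost without each of the 4 libraries in turn, at adjusted p between 0.0614 and 0.290, and without replicate 1 or 2 of WT KPC CT34, WT KPC CT38 or WT control CT38, at 0.0504 to 0.0563. The part of the length trend in these 3 values was not tested further.

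In FoxP1SkmKO mice at CT26, *Tnni2* was 3952 and 3409 FPKM in control and 2999 and 3407 in KPC mice, *Pvalb* 6897 and 6274 and 5617 and 6751, and *Myh4* 10349 and 8597 and 10438 and 10704. The control and KPC mice overlapped for *Pvalb*. Both KPC mice lay below both control mice for *Tnni2* and above both for *Myh4*. The nearest values were close, 3407 and 3409 FPKM for *Tnni2* and 10438 and 10349 FPKM for *Myh4*. With edgeR 0 of 10 members passed, where 0.0384% of all genes did, 2 had an unadjusted p under 0.05 (*Tnni2* at -0.21 and *Atp2a1* at 0.15, with 8.9% of all genes), and DESeq2 called 0. The difference of the tumor effect between genotypes at CT26 passed for 0 members with edgeR and for 0.345% of all genes, with *Tnni2* at 0.21 (SE 0.14, adjusted p = 0.628), *Pvalb* at 0.30 (SE 0.17, adjusted p = 0.527) and *Myh4* at -0.21 (SE 0.16, adjusted p = 0.659).

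**Figure D5:**
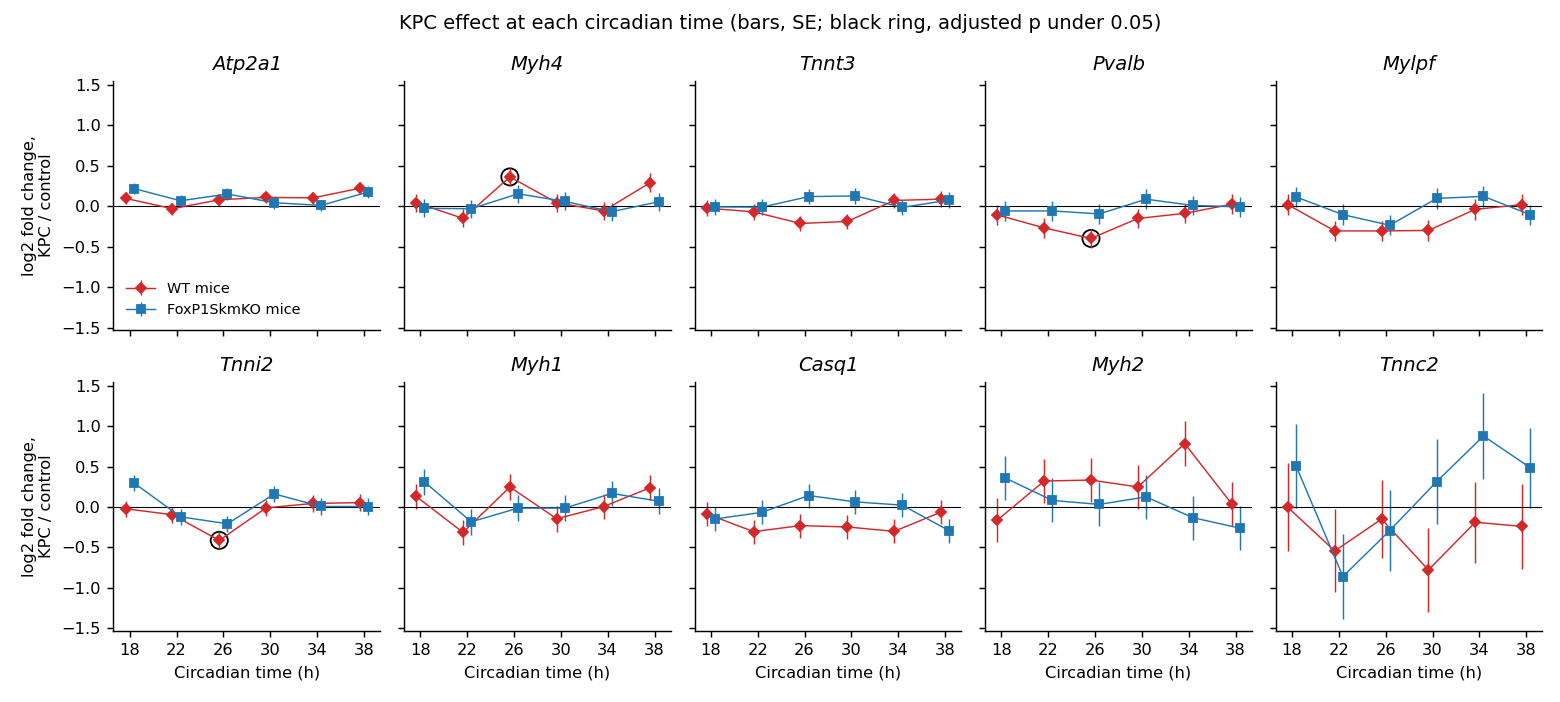
Log2 fold change of KPC against control mice at each circadian time (hours) for each of the 10 genes, in WT mice and in FoxP1SkmKO mice, with bars for the standard error. Black rings mark adjusted p under 0.05, and the ringed points are *Myh4*, *Pvalb* and *Tnni2* in WT mice at CT26.

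At the other 5 times in WT mice 0 members passed with edgeR, where 0.0064% of all genes passed at CT30, 0.0256% at CT38 and 0.0% at CT18, CT22 and CT34. Unadjusted p under 0.05 was reached in WT mice by *Pvalb* (-0.27), *Mylpf* (-0.31) and *Casq1* (-0.30) at CT22, *Mylpf* (-0.30) at CT30, *Myh2* at CT34 and *Atp2a1* (0.22) and *Myh4* (0.29) at CT38. The shares of all genes at that p were 6.23% at CT18, 4.77% at CT22, 5.21% at CT30, 6.06% at CT34 and 9.82% at CT38. *Myh2* at CT34 was the largest of these log2 fold changes, 0.78 (SE 0.27, adjusted p = 0.776), with 1 KPC mouse at 189 FPKM. In FoxP1SkmKO mice 0 members passed with edgeR at the other times, where 0.0192% of all genes passed at CT18, 0.0064% at CT38 and 0.0% at CT22, CT30 and CT34. Unadjusted p under 0.05 was reached there by *Atp2a1* (0.22) and *Tnni2* (0.30) at CT18 and *Atp2a1* (0.17) at CT38, with shares of all genes of 13.8% at CT18, 4.69% at CT22, 8.95% at CT30, 4.05% at CT34 and 8.05% at CT38. DESeq2 on the 4 libraries of each comparison called 1 member outside CT26, *Casq1* at CT34 in WT mice, where it called 0.261% of all genes.

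The difference of the tumor effect between genotypes passed for 0 members at each of the 6 times with edgeR, as it did for 0.0064% of all genes at CT22 and at CT34 and for 0.0% at CT18, CT30 and CT38. An unadjusted p under 0.05 was reached by *Tnni2* at CT18 (0.32), *Tnnt3* at CT26 (0.33), *Tnnt3* (0.31) and *Mylpf* (0.40) at CT30 and *Myh2* at CT34 (-0.92). At that p stood 10.4% of all genes at CT18, 5.27% at CT22, 11.0% at CT26, 4.96% at CT30, 4.51% at CT34 and 4.18% at CT38.

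A 24 h rhythm was tested in each genotype and treatment by fitting a sinusoid to the FPKM of 12 mice. *Tnnc2* in WT control mice was the single member with p under 0.01, the threshold of the study, 1 of 10 where 4.92% of all genes passed. Its amplitude was 0.303 ± 0.0718 FPKM (SE) on a basal level of 1.06 FPKM, the fitted peak was at CT 28.9, the p of the F test was 0.00743 and the adjusted p 0.178. This gene had 9 to 23 reads in these 12 libraries, and p rose above 0.01 without any 1 of 8 of them (WT control CT18 replicate 1 or 2, CT22 replicate 1 or 2, CT26 replicate 2, CT30 replicate 1, CT34 replicate 1 or CT38 replicate 2), to between 0.0102 and 0.025. Without CT26 it was p = 0.0215 (F test, n = 10).

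The abundant members had no 24 h rhythm past the threshold in any of the 4 sets, with or without CT26. *Tnnt3* in WT control mice came nearest, with an amplitude of 10.1% of its basal level and p = 0.0587, followed by *Casq1* in FoxP1SkmKO KPC mice with 13.5% and p = 0.0608 (F tests, n = 12). In WT KPC, FoxP1SkmKO control and FoxP1SkmKO KPC mice 0 of 10 members passed, where 4.22%, 4.07% and 2.63% of all genes did. After adjustment over all genes 0 members passed in any set, where 0.551% of all genes passed in WT control, 0.475% in WT KPC, 0.414% in FoxP1SkmKO control and 0.116% in FoxP1SkmKO KPC mice.

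Between KPC and control mice the rhythm differed at an unadjusted p under 0.05 for 1 member in WT mice, *Mylpf*, where 5.07% of all genes passed. Its fitted amplitude was 516 ± 207 FPKM in control and 226 ± 124 FPKM in KPC mice (SE), with peaks at CT 27.0 and CT 37.3. The difference had p = 0.0253 and adjusted p = 0.752 (F test, n = 12 in each treatment). The p was 0.0672 without WT control CT26 replicate 1 and 0.0628 without WT KPC CT38 replicate 1. Without CT26 it was p = 0.0649 (F test, n = 10 in each treatment). In FoxP1SkmKO mice 0 of 10 members passed, where 5.09% of all genes did. The lowest p was that of *Tnnc2* (p = 0.0685, F test, n = 12 in each treatment).

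Other genes of the fast fiber were read from a list of 19. In WT mice, averaged over the times, 3 rose with the tumor (1.16% of all genes did), the calcium release channel *Ryr1* (0.22 (SE 0.046, adjusted p = 0.00948)), its voltage sensor *Cacna1s* (0.19 (SE 0.034, adjusted p = 0.00203)) and the Z-disc protein *Actn3* (0.18 (SE 0.044, adjusted p = 0.0257)). In the same comparison 2 fell (0.627% of all genes did), the glycolytic enzyme *Pgam2* (-0.22 (SE 0.052, adjusted p = 0.0207)) and *Sypl2*, a protein of the triad membrane (-0.20 (SE 0.049, adjusted p = 0.0311)). The list's median was 0.020, and with the length trend removed all 5 passed. Without CT26 *Actn3* and *Sypl2* passed, while *Ryr1* was at 0.15 (adjusted p = 0.171), *Cacna1s* at 0.11 (adjusted p = 0.171) and *Pgam2* at -0.18 (adjusted p = 0.124). In FoxP1SkmKO mice 0 of 19 passed with edgeR, where 0.428% of all genes did, and 6 had an unadjusted p under 0.05, where 12.4% of all genes did.

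In the 12 genes of slow fibers, 0 passed in the averaged tumor comparisons with edgeR. At an unadjusted p under 0.05 there were 0 in WT and 1 in FoxP1SkmKO mice, against 15.2% and 12.4% of all genes. At CT26 0 passed in either genotype, and the other single times are not given for this list. The study names *Tnnc1* and *Myl3* among genes raised in WT KPC mice in the rest phase, CT30 and CT34. The slow light chain *Myl3* was lower in FoxP1SkmKO than in WT control mice (-0.50 (SE 0.13, adjusted p = 0.0314)), where 1.58% of all genes passed as lower. Its value was nearly the same without CT26 but no longer passed, at -0.50 (adjusted p = 0.0651), and it passed with the length trend removed, at -0.48 (adjusted p = 0.0385). Of 12 regulators of fiber type, *Eya1* (-0.19 (SE 0.052, adjusted p = 0.034)), a transcriptional co-activator of fast fiber genes, and *Tbx15* (-0.17 (SE 0.043, adjusted p = 0.0209)), a factor of glycolytic fibers, were lower in FoxP1SkmKO control mice, also without CT26 and with the length trend removed. In the averaged tumor comparisons 0 of the 12 regulators passed. At an unadjusted p under 0.05 there were 5 in WT and 1 in FoxP1SkmKO mice, against 15.2% and 12.4% of all genes. At CT26 in WT mice 2 of them passed as higher, where 4.64% of all genes did. The control mice of that comparison had the lowest length index.

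Across the 48 libraries the members did not move as 1 block. Correlations of log2 CPM (counts scaled to library size) between members are given as a description, since the libraries share depth, composition and the length trend. They were highest for *Mylpf* with *Pvalb* (r = 0.80), *Tnni2* with *Pvalb* (r = 0.76) and *Tnnt3* with *Pvalb* (r = 0.73), and lowest for *Myh1* with *Pvalb* (r = -0.40). *Myh4* went with *Atp2a1* (r = 0.54) and hardly with *Myh1* (r = 0.16) or *Myh2* (r = -0.085), and within the 24 groups *Myh1* and *Myh4* had r = -0.42.

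Among 7872 genes with enough counts, those most alike in pattern over the 48 libraries were, for *Myh4*, *Mybpc2* (r = 0.76), *Srl* (r = 0.67), *Svil* (r = 0.66). For *Pvalb* they were *Myl1* (r = 0.87), *Sh3bgr* (r = 0.82), *Capzb* (r = 0.80), where *Myl1* is the fast essential light chain. For *Myh1* they were *Gnpat* (r = 0.72), *Etfdh* (r = 0.63), *Bdh1* (r = 0.63). For *Myh2* they were *Myoz2* (r = 0.69), *Myom3* (r = 0.51), *Gpbp1l1* (r = 0.51), where *Myoz2* and *Myom3* belong to the Z-disc and M-band of slower fibers.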

How the data were processed

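RNA of the tibialis anterior of 48 mice had been sequenced as poly-A libraries. The submitters' processing notes name HISAT2 2.0.5, DESeq2 1.20.0 and mm39, while the study's methods name another aligner. The authors deposited read counts per gene, FPKM (counts divided by gene length and scaled library size) and, for each comparison, normalized count signal from size factors of 4 libraries, with their own log2 fold changes, p-values and adjusted p-values, which were not used. The comparison tables leave out some genes with very few reads, and for these 28541 values of 1 read were recovered from the FPKM. Samples were grouped by the GEO labels.

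Counts were fitted in edgeR 4.0.16 (R 4.3.3) with TMM scaling, filterByExpr and 1 coefficient for each of 24 groups (glmQLFit, glmQLFTest, 24 residual degrees of freedom), and p-values were adjusted by Benjamini-Hochberg over 15637 genes. An adjusted p under 0.05 was called. The 95% intervals of log2 fold changes use a t distribution with 24 degrees of freedom. The test also uses prior degrees of freedom (median 8.61), so the intervals are slightly wider than the test implies. Rhythms were tested on FPKM by the F test of a 24 h sinusoid with 9 residual degrees of freedom (18 for the difference between treatments), with scipy 1.17.1. DESeq2 1.42.0 and limma 3.58.1 were alternatives. The edgeR step was tested on simulated counts for the tumor comparison in WT mice over 15637 genes, and it recovered 100% of 100 genes changed by 0.5 and 62% of 100 changed by 0.2 on the log2 scale. It made 5 false calls. The changed genes were well counted, and each gene had 1 mean over all groups before the change. The simulation held no effect of time, no length trend and no spread particular to a gene, so the real data can recover fewer. Depth was 14480867 to 20787784 reads per library, and replicates were separate mice. Exon overlap was read from a GENCODE annotation of mm39, and motifs were searched in RefSeq promoters of GRCm38.p6.

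All 10 members were named in each comparison. *Foxp1* was named as the check of the genotype labels, and from each other list up to 4 genes past the threshold with the largest averaged log2 fold change. For *Myh1*, *Myh2*, *Myh4* and *Pvalb*, the 3 genes with the highest correlation among tested genes with a mean log2 CPM above 3 were named. *Ube2c*, *Myh7*, *Myoz2* and the libraries of CT26 were picked out after their values were seen. The members and lists were chosen with earlier results of these data known.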

Additional observations from a re-analysis of the deposited data

How the results depend on the processing

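The members' results kept their direction and their side of the threshold in most refits: outside single-library removals, 601 results did so, 14 changed sign, 31 gained a call and 20 lost one. These counts cover log2 fold changes and the rhythm p-values of *Tnnc2* and *Mylpf*. A result that passed in neither fit counts as kept, so the 601 do not show that the calls were stable. Outside single-library removals, the genotype calls in control mice passed in 5 (*Tnnt3*) and 4 (*Tnni2*) of 9 refits. The calls of *Myh4*, *Pvalb* and *Tnni2* at CT26 in WT mice passed in 6 of 8 refits each. Without the filter on low counts, with 33218 genes tested, more members passed, but the cause was not tested. For the tumor 6 members passed in WT mice (794 of all genes), 1 in FoxP1SkmKO mice (527) and 1 for the difference (104). For the genotype 5 passed in control (933 of all genes) and 1 in KPC mice (470). Over single times, member calls were 16 in WT mice, 5 in FoxP1SkmKO mice and 3 for the difference. Of all genes, 134 to 1130, 87 to 596 and 78 to 274 in turn passed at a single time. DESeq2 gave 2 members for the tumor in WT and 1 in FoxP1SkmKO mice. For the genotype in control mice, 0 members passed with limma on log2(FPKM + 1) or log2(FPKM + 0.1), 1 with total counts only, and 0 without CT26 (fewer samples) or with the length trend removed, the last 2 settings having been chosen after seeing the data. Over single times in WT mice, edgeR on 4 libraries gave 0, DESeq2 on 4 libraries 6, and the length trend removed 0. Rhythm calls in WT control mice, and for the difference in WT mice, were 0 at a Benjamini-Hochberg adjusted p under 0.05. They were also 0 at that adjusted p when genes under a mean of 1 FPKM were left out. The second setting thus changed the threshold as well as the genes. At the unadjusted thresholds they were 0 without CT26 (added after seeing the data).

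Signs changed with total counts only for *Myh4* and *Tnni2* in the tumor comparison of FoxP1SkmKO mice (-0.0059 and -0.0036), *Atp2a1* in the difference (-0.011) and *Mylpf* for the genotype in KPC mice (-0.0069). The last was -0.00067 with limma and -0.00019 with the length trend removed, where *Tnnc2* at CT26 in WT mice was 0.039. Without CT26, signs changed for *Myh1* in WT mice (-0.016), *Myh4* (-0.0035) and *Mylpf* (0.023) in FoxP1SkmKO mice, *Atp2a1* (-0.0094) and *Myh4* (-0.023) for the genotype in control mice and *Atp2a1* in KPC mice (-0.0063). Each of these is close to 0. A scaling other than TMM moved the median of all genes by at most 0.028 on the log2 scale.

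With each library left out in turn, members called ranged from 0 to 2 for the tumor in WT mice, 0 to 1 in FoxP1SkmKO mice, 0 to 0 for the difference, 0 to 2 for the genotype in control and 0 to 0 in KPC mice. Rhythm calls ranged from 0 to 1 in WT control, 0 to 0 in WT KPC, 0 to 1 in FoxP1SkmKO control (*Myh1*) and 0 to 0 in FoxP1SkmKO KPC mice, and the differences in rhythm from 0 to 3 in WT and 0 to 1 in FoxP1SkmKO mice. Log2 fold changes crossed 0 for *Myh1* in WT (-0.021 to 0.069) and for *Myh4* (-0.014 to 0.052), *Mylpf* (-0.070 to 0.013) and *Myh2* (-0.051 to 0.096) in FoxP1SkmKO mice. They did so for *Atp2a1* (-0.0016 to 0.031) and *Myh1* (-0.014 to 0.076) in the difference, *Atp2a1* (-0.011 to 0.016) and *Myh2* (-0.014 to 0.063) for the genotype in control mice, and *Pvalb* (-0.0092 to 0.035), *Mylpf* (-0.044 to 0.039), *Myh1* (-0.063 to 0.025) and *Casq1* (-0.0063 to 0.064) in KPC mice. Over single times in WT mice, with each WT library left out (added after seeing the data), calls ranged from 0 to 3, and *Tnnc2* at CT26 ran from -0.90 to 0.35.

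Genes called among all genes numbered 280 for the tumor in WT mice (794 without the filter, 166 and 173 with limma, 138 without CT26, 72 to 417 with a library left out) and 67 in FoxP1SkmKO mice (161 with DESeq2, 527 without the filter, 22 and 20 with limma, 17 to 236). For the genotype they numbered 538 in control (933 without the filter, 316 to 768) and 50 in KPC mice (116 with DESeq2, 470 without the filter, 17 to 203), and for the difference 0 (104 without the filter, 0 to 4).

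Replicate numbers are shared between groups, and the sample titles do not say whether they pair the mice. Over 36 pairs of groups of the same time, replicate deviations correlated between -0.10 and 0.22 (median -0.0091), and 1 pair exceeded 0.1. Such correlations over all genes can miss a pairing that moves few genes. With the replicate block, 0 members passed for the tumor in WT mice, 0 in FoxP1SkmKO mice, 0 for the difference, 2 for the genotype in control mice, 0 in KPC mice and 3 at CT26 in WT mice, which changed no call, and p was 0.00499 for *Tnnc2* in WT control mice and 0.0306 for the difference of *Mylpf*. *Tnnc2* was the member with the fewest reads, 6 to 23 per library, and the cause of its low count was not tested.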

Other observations

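Myosins of developing, regenerating and specialised muscle were near the bottom of the scale in these libraries. The summed level of 5 such genes ran from 2.99 to 6.36 FPKM over 48 libraries, and from 2.99 to 3.02 FPKM in the WT control mice of CT26, against 39309.6 to 51024 FPKM for the 10 fast-fiber genes. None of the 4 that could be tested passed edgeR's test in the averaged tumor comparisons. At an unadjusted p under 0.05 there were 1 in WT and 0 in FoxP1SkmKO mice, against 15.2% and 12.4% of all genes. At CT26 in WT mice *Myh13*, the myosin of eye muscles, was higher in KPC than in control mice, at 0.90 (SE 0.26, adjusted p = 0.0301), the group with the lowest length index being the control, and with the length trend removed it no longer passed, at 0.81 (adjusted p = 0.092).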
